A study of Mus musculus with 8 samples.

Results

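The 200 transcripts with the fewest ribosome footprints per mRNA were examined in the E14.5 mouse forebrain, the embryonic stage at which much of the cortex is being generated. Footprints are the stretches of mRNA that a ribosome shields from RNase, so their abundance relative to the mRNA measures how heavily a transcript is loaded with ribosomes. The 200 members were chosen by their measured levels. Of 16365 transcript IDs in the footprint and mRNA tables, the 8665 with a mean of at least 50 mRNA counts and at least 10 footprint counts were ranked by efficiency. Efficiency is the log2 ratio of the mean footprint CPM (counts per 1000000 counts of a library) to the mean mRNA CPM, each over 4 libraries with both genotypes pooled, and the 200 lowest values were taken. The study compared wild-type (WT) embryos with embryos labelled Elp3cKO, in which Elp3 was deleted conditionally in progenitors of the cortex. Each genotype was assayed for footprints and for polyA-selected mRNA in 2 libraries, which makes 8 libraries in 4 groups. The Cre driver, the strain and whether replicates came from separate embryos were not stated in the labels, so the p-values reflect the spread among the deposited libraries alone, which could be technical. The forebrain also holds cells outside the targeted progenitors, and the share of deleted cells is not given.

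An mRNA can carry few ribosomes because initiation on it is rare, for example where upstream reading frames capture scanning ribosomes, or because it is held untranslated in particles or in the nucleus. Polyadenylated RNAs without a coding sequence also carry few footprints. Elp3 is the catalytic subunit of Elongator, which modifies the wobble uridine of certain tRNAs, and these modifications help ribosomes decode the matching codons. The tables identify transcripts by UCSC known gene IDs without symbols. Of the 16365 IDs, 0 matched the gene tables used here, so the functions, positions and sequences of the members, the level of Elp3 itself and the markers of forebrain cell types were not examined.

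By the rule, the members spanned a wide range of efficiency, and these values describe the choice and were not tested. The lowest efficiency was -5.24, the median -2.47 and the highest -2.16 on the log2 scale, against a median of -0.12 over all 8665 ranked transcripts. In linear terms the median member had 0.181 footprint CPM per mRNA CPM, and the ratio of the median ranked transcript was 5.08 times that of the median member and 34.6 times that of the lowest. Most members lay close to the threshold: 94 of the 200 had an efficiency under -2.5, 31 were under -3 and 7 were under -4. Ranks 199 and 200 had efficiencies of -2.17 and -2.16, and ranks 201 and 202, just outside, -2.16 and -2.16, so no gap separates the members from the next transcripts. Because each library is scaled to its own total, the values rank transcripts against each other and give no number of ribosomes per mRNA. The part of the transcript that was counted is also not given, so footprints per coding length could not be computed.

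The member of lowest efficiency was well expressed as mRNA. Its mRNA counts were 519 (WT 1), 442 (WT 2), 264 (Elp3cKO 1) and 520 (Elp3cKO 2), but its footprint counts were 32, 9, 39 and 18. Its pooled footprint to mRNA ratio was 0.0251 (exact 95% interval 0.0202 to 0.0307, which covers counting error only). The member at rank 2 had 639, 472, 233 and 629 mRNA counts in the same order of libraries and 37, 84, 13 and 14 footprint counts, a pooled ratio of 0.0335 (0.0281 to 0.0396). The intervals of these ratios overlap, but overlap is no test of a difference, and the intervals leave out the spread between libraries. The order of ranks 1 and 2 was not tested. The ratio of the member at rank 200 was 0.229 (0.210 to 0.250).

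The rule asks for a mean of at least 50 mRNA counts, so rare mRNAs could not be members. The members' mRNA levels ran from 14.3 to 2795 CPM with a median of 92.3 CPM, above the median of 54.4 CPM of all ranked transcripts. Of the 200, 87 lay in the upper quartile of ranked mRNA levels and 27 in the lowest. Their footprint levels ran from 1.21 to 543 CPM with a median of 14.0 CPM, against 51.1 CPM, and 144 members lay in the lowest quartile of footprint levels. A high mRNA level and a low footprint level both lower the ratio that chose them. The most abundant member, at rank 130, was among the 8 most abundant mRNAs of all ranked transcripts, with 2911, 2792, 2657 and 2821 mRNA CPM in WT 1, WT 2, Elp3cKO 1 and Elp3cKO 2 and 505, 517, 539 and 612 footprint CPM. Such values of a single member in a single library are scaled by the trimmed mean of M values (TMM). Medians of sets per library use unscaled CPM. In the plot of both levels the members run along the lower edge of the cloud up to the most abundant member.

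**Figure D1:**
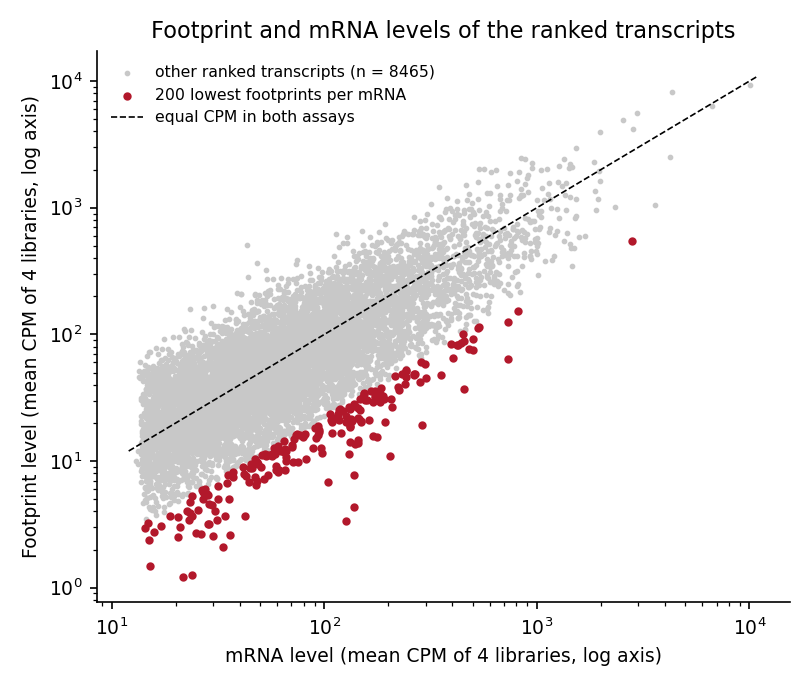
Each point is 1 of 8665 ranked transcripts, with mean mRNA CPM on the x axis and mean footprint CPM on the y axis (both log scale, 4 libraries each) and a dashed line at equal CPM. The 200 members (red) run along the lower edge of the cloud, from 14.3 to 2795 mRNA CPM.

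The members had low footprint counts and a wide spread between footprint libraries, and whether the counts account for the spread was not tested. The mean footprint count was under 50 in 44 of the 200 members and the median was 112, against 406 over all ranked transcripts, while the median mean mRNA count was 324. Between the WT footprint libraries the median absolute log2 ratio was 0.42 for the members and 0.22 for all ranked transcripts (both after adding 0.5 CPM), and between the Elp3cKO footprint libraries 0.36 and 0.19. The mRNA libraries differed less, by 0.15 in WT and 0.19 in Elp3cKO for the members. In total 26 members differed over 2-fold between the WT footprint libraries and 28 between the Elp3cKO footprint libraries, against 2.53% and 2.25% of all ranked transcripts. Between mRNA libraries of a genotype 0 members did so, where the shares of all ranked transcripts were 0.958% in WT and 0.519% in Elp3cKO. A count of 0 was seen for 1 member in WT footprint replicate 2 and for 3 members in Elp3cKO footprint replicate 2. These were all the zeros among the ranked transcripts in those libraries.

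The low load was seen in each genotype. The median efficiency of the members was -2.52 in WT and -2.56 in Elp3cKO, all 200 lay in the lowest decile of ranked transcripts in each genotype, and 147 were at or under the pooled threshold in both. The pooled rule used both genotypes, so a choice made on the efficiency of 1 genotype was also read in the other. The count minimums that define the ranked transcripts still use both genotypes, so these counts are a description. Of the 200 lowest chosen in WT libraries alone, 191 were among the 8665 ranked transcripts, and 183 of these lay in the lowest decile in Elp3cKO, with a median efficiency of -2.51 there. Of the 200 chosen in Elp3cKO alone, 199 were ranked and 192 lay in the lowest decile in WT, with a median of -2.41.

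Together the members took a small part of the footprints and a larger part of the mRNA. Their share of footprint counts was 0.523% in WT 1, 0.520% in WT 2, 0.495% in Elp3cKO 1 and 0.473% in Elp3cKO 2. Of mRNA counts they held 3.12% and 3.06% in WT, and 2.92% and 2.69% in Elp3cKO. In both assays each Elp3cKO library was below each WT library, with Elp3cKO replicate 2 lowest. The same order held without the most abundant member, which left 2.83% and 2.78% of mRNA counts in WT and 2.65% and 2.41% in Elp3cKO. With 2 libraries against 2, an exact permutation test could not have passed the threshold, and none was run.

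**Figure D2:**
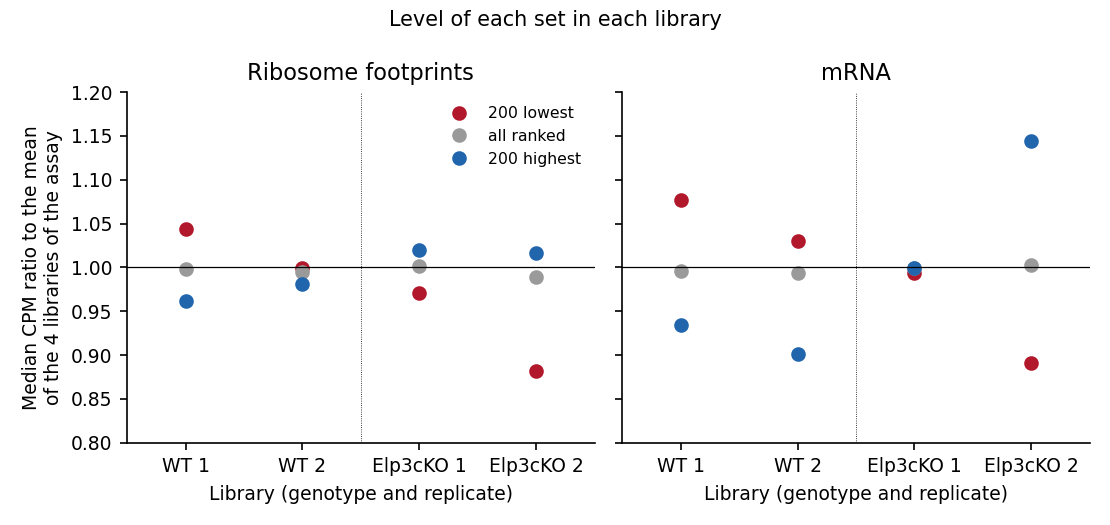
For each library (x axis), the y axis gives the median over transcripts of the CPM divided by the mean CPM of the 4 libraries of that assay, for the 200 members (red), all ranked transcripts (grey) and the 200 transcripts of highest efficiency (blue). The mRNA medians of the members were 1.08 and 1.03 in WT and 0.994 and 0.891 in Elp3cKO, and the grey points stay between 0.989 and 1.00.

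Per library, the median member stood at 1.04 and 0.999 times its assay mean in the WT footprint libraries and at 0.971 and 0.882 times in Elp3cKO. In mRNA it stood at 1.08 and 1.03 times in WT and at 0.994 and 0.891 times in Elp3cKO. Elp3cKO replicate 2 was the lowest library in both assays and lay farthest from the mean. The 200 transcripts of highest efficiency went the other way in that mRNA library, at 1.14 times their assay mean.

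The first comparison asked how the mRNA levels of the members differed between the genotypes. Most members had less mRNA in Elp3cKO, by a small amount. The mRNA log2 fold change of Elp3cKO against WT was below 0 for 155 of the 200 members (77.5%), against 50.03% of all 11697 transcripts tested, and its median was -0.17 for the members and 0.00 for all tested. This median corresponds to 0.887 of the WT level and is close to the median standard error (SE) of a single member, 0.16. The SE of a single member is not the error of the median over members. Between libraries of a genotype, the standard deviation (SD) of the members' median log2 level was 0.085. The middle 50% of members lay between -0.32 and -0.02. Of the 200 members, 9 fell and 0 rose (quasi-likelihood test of edgeR, p under 0.05 after Benjamini-Hochberg adjustment over all 11697). A single edgeR model over all 8 libraries called 3 of these 9 falls. The 9 falls are 4.5% of the members, where 1.01% of all tested transcripts fell, and for rises the background was 0.915%. Among the 8665 ranked transcripts alone, which leave out low mRNA counts, the share of falls was 1.29%. The excess of falls over rises extended beyond the members. In the decile of ranked transcripts with the lowest efficiency, which holds all members, 29 fell and 2 rose in mRNA. In the next decile, which holds no member, 29 fell and 4 rose.

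Without the adjustment, 47 members had a lower and 4 a higher mRNA level at p under 0.05 (23.5% and 2.0%), against 6.96% and 6.52% of all tested. In 90 members both Elp3cKO mRNA libraries were below both WT libraries, and in 12 both were above (45.0% and 6.0%). Over all tested transcripts these shares were 22.1% and 21.4%. In bulk tissue, fewer cells of a type and less RNA per cell cannot be told apart. Single libraries moved the count of falls, and the share of all tested transcripts that fell in those fits is not given. The median log2 fold change was -0.09 without Elp3cKO mRNA replicate 2 and -0.25 without Elp3cKO mRNA replicate 1. The share of members below 0 was 64.0% and 81.5%.

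**Figure D3:**
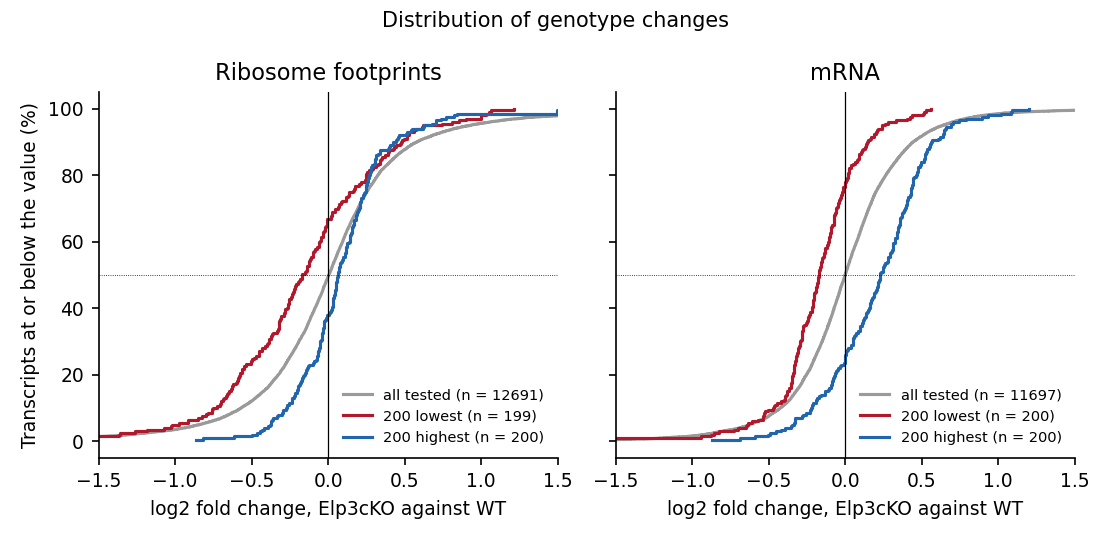
The curves give the share of transcripts (y axis, %) at or below each log2 fold change of Elp3cKO against WT (x axis, limited to -1.5 to 1.5, so a few values lie outside) for the members (red), all tested transcripts (grey) and the 200 of highest efficiency (blue). The red curves cross 50% at -0.17 in both assays, left of the grey curves.

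The clearest fall was that of the member at rank 74, uc008jqv.1. Its mRNA was at 58.4 and 44.3 CPM in the WT libraries and at 14.0 and 9.90 CPM in the Elp3cKO libraries. The mRNA counts were 250 and 132 in WT and 29 and 48 in Elp3cKO. Both Elp3cKO counts lay under the minimum mean mRNA count of the rule, which this member met through its WT counts. All Elp3cKO values lay below all WT values, and mRNA changed by -2.17 on the log2 scale (SE 0.27, adjusted p = 3.21e-06 by edgeR). This transcript was called in 12 of 12 alternative fits, with adjusted p from 8.81e-13 to 0.0333. Its footprints followed in direction, with 87 and 76 counts in WT and 26 and 0 in Elp3cKO (the 0 allows up to 0.728 CPM), or 9.55, 7.53, 3.07 and 0 CPM. The footprint log2 fold change of -2.31 (SE 0.94) did not pass the test (edgeR adjusted p = 0.346, and 0.0374 to 1.00 over the alternatives). In the edgeR model over all 8 libraries it passed, at -2.17 with the adjusted p of 0.0374. Without Elp3cKO footprint replicate 2, the library with the 0, it was -1.47, and without Elp3cKO replicate 1 only that library is left, so no fold is given.

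The other member given by ID, uc007mky.2 at rank 116, had 207 and 238 mRNA CPM in WT and 122 and 123 CPM in Elp3cKO. The groups did not overlap, and mRNA changed by -0.86 on the log2 scale (SE 0.12, adjusted p = 4.51e-05 by edgeR; 12 of 12 alternatives called, from 2.87e-09 to 0.0118). Its footprints were at 35.3 and 41.6 CPM in WT and 22.0 and 31.1 CPM in Elp3cKO, also without overlap. Of all tested transcripts, 21.5% had such a footprint fall. The footprint log2 difference of -0.55 (SE 0.26) did not pass the test (adjusted p = 0.437 by edgeR). It was -0.31 without Elp3cKO footprint replicate 1 and -0.80 without Elp3cKO replicate 2. The member at rank 55 fell from 29.2 and 36.6 to 8.23 and 9.69 mRNA CPM, a log2 change of -1.84 (SE 0.30, adjusted p = 0.00022 by edgeR). With mRNA counts of 125 and 109 in WT and 17 and 47 in Elp3cKO, it also met the minimum of the rule through its WT counts. It was called in 11 of the 11 alternatives that gave it an adjusted p. DESeq2 gave it none and so did not call it. The mRNA of these 3 members was called in each of the 4 fits that left out 1 mRNA library.

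The remaining 6 falls, at ranks 15, 32, 42, 59, 134 and 147, were smaller and less stable. Their log2 fold changes ran from -0.94 to -0.38, with adjusted p between 0.00797 and 0.023. Each lost its call in 2 or 3 of the 4 fits without 1 mRNA library, and each was called in 8 or 9 of 12 alternatives, with log2 fold changes from -1.20 to -0.34, all below 0, and adjusted p from 4.39e-06 to 0.457. Among them the member at rank 134 was the most abundant, at 499 and 492 CPM in WT and 390 and 371 CPM in Elp3cKO. The plot of the 9 members by library shows all Elp3cKO mRNA values below all WT values for each member. The 9 were chosen by the test of these same values, so this adds no further support. Of all tested transcripts, 22.1% had such a fall without overlap.

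**Figure D4:**
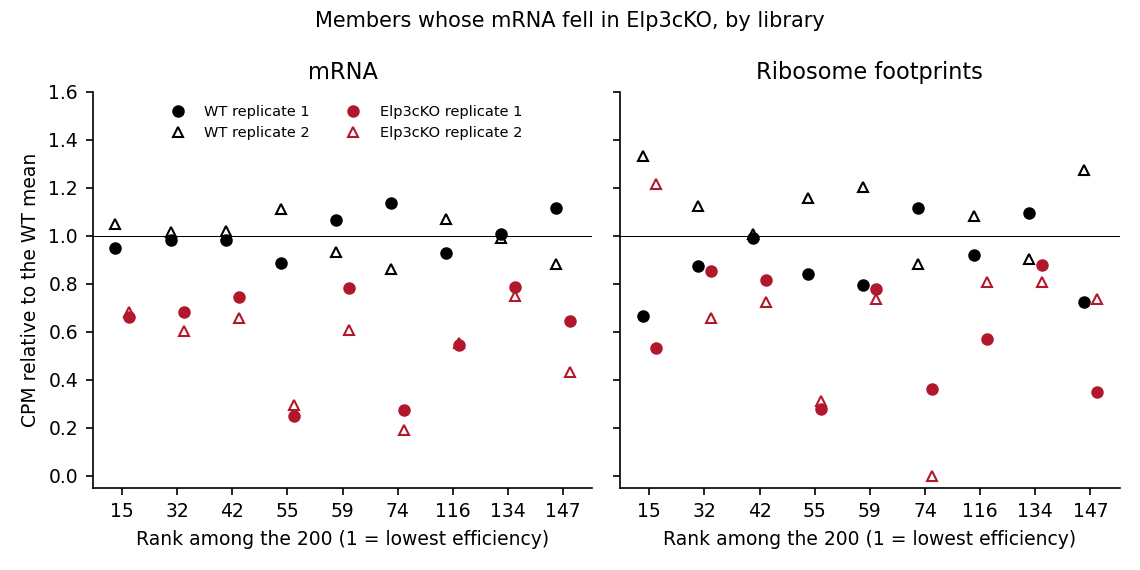
CPM of each library relative to the WT mean (y axis, linear) for the 9 members whose mRNA fell (x axis, rank by efficiency), with WT in black, Elp3cKO in red, replicate 1 as filled circles and replicate 2 as open triangles. In mRNA, by which the 9 members were chosen, the genotypes do not overlap for any of them. The WT and Elp3cKO footprint values overlap for ranks 15 and 147.

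The second comparison concerned footprints. Of the 200 members, 199 passed the filter on low counts in footprints. Their footprint log2 fold change was below 0 in 133 (66.8%), against 49.5% of all 12691 tested, with a median of -0.17 against 0.01. The middle 50% lay between -0.48 and 0.15. The median SE of a single member was 0.40, larger than the median change. The SD of the members' median log2 footprint level between libraries of a genotype was 0.079. Of the 199, 0 rose and 0 fell (edgeR adjusted p under 0.05), where 0.402% of all tested transcripts rose and 0.544% fell. The smallest adjusted p among the members was 0.214. At an unadjusted p under 0.05, 13 members were lower (6.53%, near the 6.04% of all tested) and 0 were higher, against 5.56%. DESeq2 and limma also called 0 members in either direction, while a single edgeR model over all 8 libraries called 9 falls. The share of all tested transcripts that fell in that model is not given. Both Elp3cKO libraries were below both WT libraries in 63 members (31.7%, against 21.5% of all tested) and above them in 28 (14.1%, against 21.6%).

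The footprint median depended on how the members were chosen. With the 200 lowest chosen in WT libraries alone it was 0.02, and with those chosen in Elp3cKO libraries alone it was -0.29. Such a choice uses the same footprint counts as 1 side of the contrast, and how far this moved the median was not tested. The mRNA median was -0.18 and -0.15 under these choices. With Elp3cKO footprint replicate 1 left out the footprint median was -0.27, and with WT footprint replicate 1 left out it was -0.11.

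For the 199 members tested in both assays, the directions of change were compared. Both values were below 0 in 112 members (56.3%) and both above 0 in 24 (12.1%). Footprints were lower and mRNA higher in 21 (10.6%), and footprints higher and mRNA lower in 42 (21.1%). Over the 11588 transcripts tested in both assays, 30.6% were lower in both and 30.5% higher in both. The mixed classes held 19.5% and 19.3% of them, so the 42 members are near the background. With 66.8% of members below 0 in footprints and 77.5% in mRNA, a larger share lower in both follows in part from each assay alone. Whether the assays went together beyond that was not tested.

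The third comparison asked whether footprints changed beyond the mRNA, as the interaction of genotype and assay. The median log2 change of efficiency was 0.04 for the members and -0.02 for all 11588 tested, and it was below 0 in 91 of 199 members (45.7%, against 51.9%). Of the 199, 0 rose and 0 fell by edgeR (adjusted p under 0.05), and DESeq2 and limma also called 0. The background was 0% for rises and 0.0173% for falls. At an unadjusted p under 0.05, 8 members had a higher efficiency (4.02%, against 2.35%) and 6 a lower one (3.02%, against 2.93%). The median SE was 0.34, so a change of efficiency of the size of the mRNA median would not have been detectable in a single member. Without Elp3cKO mRNA replicate 2 the median was -0.08, and without WT footprint replicate 1 it was 0.11.

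The 2 members of lowest efficiency had differences of opposite sign. At rank 1, footprints were at 3.51 and 0.891 CPM in WT and 4.61 and 4.37 CPM in Elp3cKO, while mRNA was at 121 and 148 CPM and at 128 and 107 CPM. Its efficiency had a log2 change of 1.27 (SE 0.47). At rank 2, footprints were at 4.06 and 8.32 CPM in WT and 1.54 and 3.40 CPM in Elp3cKO, with mRNA at 149 and 158 CPM and at 113 and 130 CPM, and the log2 change of efficiency was -1.16 (SE 0.45). In both members the footprint values of the genotypes did not overlap. Of all tested transcripts, 21.6% had a footprint rise and 21.5% a footprint fall without overlap. Neither change of efficiency passed the test (edgeR adjusted p = 0.908 for each). The most abundant member, at rank 130, had a log2 change of efficiency of 0.23 (SE 0.11, edgeR adjusted p = 0.928).

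The median mRNA difference was similar across groups of members by efficiency and by mRNA level, and varied more by footprint count. In the 50 members of lowest efficiency the median mRNA log2 fold change was -0.17, and in the following groups of 50 it was -0.17, -0.17 and -0.19. Split by mRNA level, the medians from the least to the most abundant group of 50 were -0.19, -0.17, -0.17 and -0.17, although the median SE went from 0.26 to 0.11. In the same order, 37, 35, 39 and 44 of 50 members were below 0. Split by footprint count, the mRNA medians from the lowest to the highest group of 50 were -0.21, -0.10, -0.16 and -0.20. There 38, 33, 37 and 47 of 50 were below 0. The footprint medians of the efficiency groups were -0.14, -0.07, -0.22 and -0.18. In the most abundant 50, where the footprint SE was 0.22, the footprint median was -0.15 with 36 of 50 below 0.

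The difference was graded along the whole efficiency ranking. Over deciles of the 8665 ranked transcripts, from the lowest to the highest efficiency, the median mRNA log2 fold change was -0.12, -0.09, -0.05, -0.02, -0.01, 0.02, 0.03, 0.04, 0.09 and 0.16. The footprint medians went from -0.08 in each of the lowest 2 deciles to 0.05 in the highest. The 200 transcripts of highest efficiency had a median of 0.23 in mRNA and 0.06 in footprints. Of these, 5 rose (2.5%, against 0.915% of all tested) and 2 fell (1.0%, against 1.01%) in mRNA. In footprints 3 rose (1.5%, against 0.402%) and 2 fell (1.0%, against 0.544%). The mRNA libraries enter both the efficiency and the mRNA fold change, and the part of this in the gradient was not tested. The difference between these sets was not tested either.

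**Figure D5:**
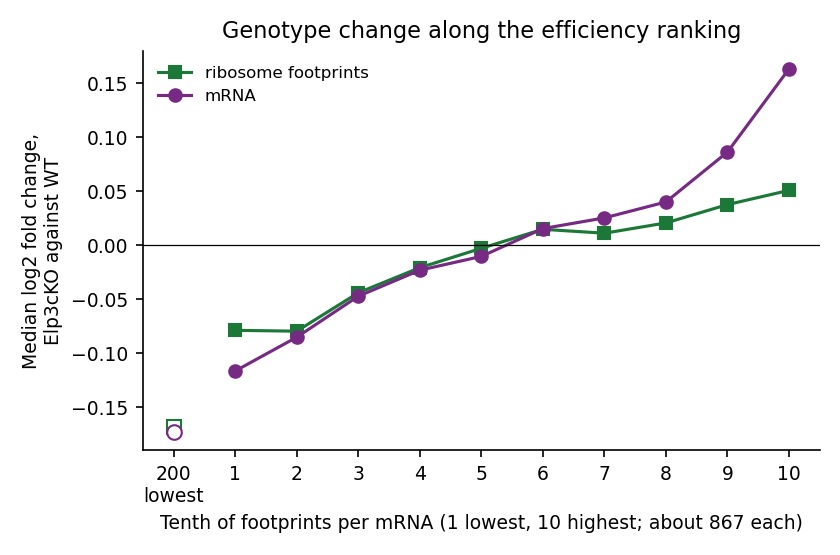
Median log2 fold change of Elp3cKO against WT (y axis) in footprints (green squares) and mRNA (purple circles) for deciles of the ranked transcripts by efficiency (x axis), with the 200 members as open symbols at the left. The mRNA medians rise from -0.12 in the lowest decile to 0.16 in the highest, and the members lie at -0.17 in both assays.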

How the data were processed

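The authors deposited whole-number counts for transcripts under UCSC identifiers, in separate footprint and mRNA tables. Monosome fractions yielded the footprints (28 to 32 nt) and a TruSeq kit the mRNA libraries, per the labels' protocols. CASAVA 1.8, Bowtie 1.0.0 and the mm10 build are listed in the submitters' processing notes. The counter, the counted region, strand use and any removal of PCR duplicates were not stated there, so counts of overlapping, antisense or near-identical transcripts are uncertain. Total counts were 4119478 to 10082980 for footprints and 2059059 to 4823834 for mRNA.

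From the counts, whole tables were fitted in R 4.3.3 with edgeR 4.0.16 (filterByExpr minimum count 10, TMM within each assay, quasi-likelihood test, Benjamini-Hochberg adjustment), separately per assay and as an interaction over all 8 libraries. SE is the log2 fold change over the root of F. DESeq2 1.42.0 and limma 3.58.1 were alternatives. IDs printed were limited to the members with the smallest p among called rises and falls; other members are given by rank. The members and lists were chosen with earlier results of these data known.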

Additional observations from a re-analysis of the deposited data

How the results depend on the processing

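Both other scalings (size factors of DESeq2, upper quartile) and both other filters on low counts changed no count of calls by over 1.5 times. Counts of called mRNA falls were 9 as reported, 15 with limma voom, 15 with the replicate block, 3 in the model over all 8 libraries and 17 among the 400 lowest. Leaving out 1 library gave 3 to 17, and 3 to 18 when the members were also rechosen (added after seeing the data). Of the 9, 8 were called by DESeq2 (which gave no adjusted p for rank 55), 9 by limma voom and with the replicate block, and 3 over all 8 libraries. The mRNA rises were 1 for members from WT libraries alone and 1 among the 400 lowest. Footprint falls were 9 in the model over all 8 libraries, and 1 rise and 1 fall were called among the 400 lowest. There was 1 footprint rise for members from WT libraries alone. Leaving out 1 footprint library gave 0 to 1 rises and 0 to 5 falls, also when rechosen. The footprint median was -0.27 to -0.11 without 1 library (-0.27 to -0.12 when rechosen), 0.0209 for members from WT libraries alone and -0.29 from Elp3cKO libraries alone. For efficiency the median was -0.0795 to 0.13 without 1 library (-0.0848 to 0.14 when rechosen), with 0 to 3 rises. It was 0.25 for members from WT libraries alone, with 27.6% below 0, and -0.17 from Elp3cKO libraries alone. The mRNA median stayed between -0.26 and -0.09 in all 21 alternatives. No cause was tested for these moves, and the shares of all tested transcripts called in the alternative fits are not given.

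The rule chose 174 to 192 of the 200 members again without 1 library, 158 from WT and 161 from Elp3cKO libraries alone, 200 with TMM-scaled CPM and 193 with means of logs. Same-numbered WT and Elp3cKO libraries of an assay did not deviate together (r = 0.055 for footprints and 0.018 for mRNA), so the replicate number was not taken to pair them. Pairing of a footprint with an mRNA library of the same genotype and number was not examined. The interaction model treats all 8 libraries as independent. With the replicate block 0 members were called in footprints or efficiency. Depth limits footprints most in Elp3cKO replicate 2, where 3 counts are 0.728 CPM.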

Other observations

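Another 7 transcripts with a mean of at least 50 mRNA counts were left out of the ranking because their mean footprint count was under 10. Their mean mRNA counts ran from 62.8 to 180 and their mean footprint counts from 1.5 to 8.75, and the efficiency of all 7 was below that of the member at rank 200. With the footprint minimum lowered to 1, these took the place of 7 members, and 193 of the 200 were chosen again.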
